A study of Mus musculus with 4 samples.

Results

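Dense clusters of distal accessible regions were examined in EpRas cells, an H-Ras-transformed derivative of the mouse mammary gland epithelial line EpH4, by FAIRE-seq (formaldehyde-assisted isolation of regulatory elements followed by sequencing), which enriches DNA that is not held by nucleosomes. The clusters were chosen by the peak calls themselves. Peaks of the 4 deposited lists that overlapped by at least 1 bp were merged into 35796 regions. Of these, 23844 were distal, that is autosomal and with a middle more than 2 kb from any annotated transcription start site (TSS). Neighbouring distal regions with a gap of at most 12.5 kb were joined into chains, and chains of 5 or more regions were kept. This gave 246 clusters with 1457 regions, or 6.11% of the distal regions, in spans that covered 0.263% of the autosomes.

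Enhancers are distal DNA elements that bind transcription factors and act on promoters over a distance, and they often occur in groups around genes that define a cell type or that respond to a signal. Epithelial-mesenchymal transition (EMT) is the loss of epithelial adhesion and the gain of motility that TGF-β can induce in Ras-transformed epithelium. Etv4 and Etv5 are transcription factors of the PEA3 subfamily of the ETS family, and AP-1 is a dimer of Fos and Jun proteins that binds many enhancers. FAIRE reads openness only, so no cluster is called an enhancer here by this measure alone.

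All 4 groups were EpRas cells with active H-Ras, transfected with siRNA and collected at day 4, and each group was represented by 1 peak list. The first group received a control siRNA (siControl) and no TGF-β. The second received the same control siRNA and TGF-β at 1 ng/ml. The third and the fourth received TGF-β and siRNAs against Etv4 and Etv5, named siEtv4/5 set 1 and set 2, which used different siRNAs for the knockdown. A single transformed line was used, and without replicate lists no p-value was computed and the spread between cultures is unknown. The intervals below are 95% intervals that cover counting error only.

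A region of each of 10 clusters is printed here to show what the members look like at the level of sequence. It is the region outside exons with the most summit fragments in any library, not scaled by depth. Each is given as 201 bases centred on the summit, read 5′ to 3′ on the plus strand of mm10. The clusters were picked after their values were seen, from those with the most regions, those tied to a listed gene and those with an extreme ratio. Capitals mark the letters of AP-1 (TGANTCA), ETS (CNGGAAG), RUNX (TGTGGT) and TEAD (GGAATG) sites on either strand.
Card10 cluster, chr15:78828342-78828542, intergenic: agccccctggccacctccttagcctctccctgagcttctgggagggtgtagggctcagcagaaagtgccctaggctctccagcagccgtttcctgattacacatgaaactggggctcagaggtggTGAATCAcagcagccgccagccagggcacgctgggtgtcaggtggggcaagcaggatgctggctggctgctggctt
Dlgap1 cluster, chr17:70746837-70747037, intron: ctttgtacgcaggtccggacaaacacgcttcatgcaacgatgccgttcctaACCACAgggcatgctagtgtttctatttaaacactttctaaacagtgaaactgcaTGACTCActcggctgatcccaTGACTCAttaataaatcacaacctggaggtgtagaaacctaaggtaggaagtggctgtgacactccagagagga
Krt8 cluster, chr15:102016179-102016379, intergenic: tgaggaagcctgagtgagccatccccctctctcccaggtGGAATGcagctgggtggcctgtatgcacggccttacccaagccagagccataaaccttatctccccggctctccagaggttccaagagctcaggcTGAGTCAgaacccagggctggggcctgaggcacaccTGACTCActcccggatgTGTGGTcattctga
Cldn4 cluster, chr5:134959193-134959393, intergenic: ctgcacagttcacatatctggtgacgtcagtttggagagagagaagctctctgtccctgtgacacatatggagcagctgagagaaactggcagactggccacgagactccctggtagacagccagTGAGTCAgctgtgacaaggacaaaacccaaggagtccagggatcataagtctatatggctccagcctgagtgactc
Plau cluster, chr14:20805000-20805200, intergenic: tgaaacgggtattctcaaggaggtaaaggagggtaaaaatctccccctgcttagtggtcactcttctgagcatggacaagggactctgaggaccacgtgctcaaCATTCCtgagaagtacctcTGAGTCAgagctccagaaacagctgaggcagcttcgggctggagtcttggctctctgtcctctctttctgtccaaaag
Snai1 cluster, chr2:167574887-167575087, intron: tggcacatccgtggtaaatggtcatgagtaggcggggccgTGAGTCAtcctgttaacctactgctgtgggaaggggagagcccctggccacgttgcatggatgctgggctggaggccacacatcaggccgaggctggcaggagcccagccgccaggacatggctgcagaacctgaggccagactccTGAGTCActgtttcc
Socs3 cluster, chr11:117941524-117941724, intergenic: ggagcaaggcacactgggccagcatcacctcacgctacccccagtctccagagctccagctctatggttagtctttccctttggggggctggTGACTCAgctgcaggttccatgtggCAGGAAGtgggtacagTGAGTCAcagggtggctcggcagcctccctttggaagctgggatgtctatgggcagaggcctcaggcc
Asb7 cluster, chr7:66593693-66593893, intergenic: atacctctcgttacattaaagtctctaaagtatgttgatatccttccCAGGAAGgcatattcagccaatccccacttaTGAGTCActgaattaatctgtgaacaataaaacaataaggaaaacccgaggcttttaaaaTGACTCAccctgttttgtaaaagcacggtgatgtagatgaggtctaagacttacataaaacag
Uaca cluster, chr9:60777014-60777214, intergenic: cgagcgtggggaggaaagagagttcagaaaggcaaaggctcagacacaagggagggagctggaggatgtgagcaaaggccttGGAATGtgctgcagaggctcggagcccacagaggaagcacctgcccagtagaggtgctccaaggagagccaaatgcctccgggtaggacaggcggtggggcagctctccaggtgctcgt
Rpl14 cluster, chr9:120582701-120582901, intergenic: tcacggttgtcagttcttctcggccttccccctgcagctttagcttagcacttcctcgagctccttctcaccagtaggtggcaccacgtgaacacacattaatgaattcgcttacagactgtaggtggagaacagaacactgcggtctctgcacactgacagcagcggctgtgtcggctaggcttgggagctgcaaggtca
AP-1 letters were found in 8 of these 10 sequences and occurred 2 times in 5 of them. In a wider window of 300 bases they stood in 52.0% of all clustered regions and in 52.0% of the other distal regions. The printed sequences were picked and do not give the share of members. The Uaca sequence held a TEAD match only, and the Rpl14 sequence held no match to any of the 4 motifs. A match is a description of letters and not evidence of binding.

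Most clusters were just large enough to be kept. There were 131 clusters of 5 regions, 63 of 6, 21 of 7, 14 of 8, 9 of 9, 5 of 10, 2 of 11 and 1 of 12. The median span was 25.2 kb, with a range from 7.43 to 60.5 kb, and the median gap between neighbours was 4.85 kb. Just outside the rule lay 317 chains of 4 regions, with 1268 regions. Of the 1211 gaps inside clusters, 57 were within 1 kb of the limit, and 379 gaps between chains were longer than the limit by at most 1 kb. Chromosome 11 held 39 clusters, more than any other, with 13.1% of its 1803 distal regions in clusters, whereas chromosome 14 held 3 with 2.64%. The same steps found 0 clusters among the 197 distal regions of the sex chromosomes.

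The lists held 14925 to 28754 peaks, and the depth estimated from their background was 15.3 to 20.7 M reads. The set 2 list was the shortest although its estimated depth was the highest. Promoter regions of 10 mammary epithelial marker genes were called for 8 genes in the untreated list, 7 with TGF-β, 4 after set 1 and 2 after set 2. Over all 20780 autosomal coding genes the shares with a called promoter region were 37.6%, 39.7%, 35.6% and 28.6%. Of 12 marker genes of blood, endothelium, muscle, neurons and fibroblasts, 1, 1, 0 and 0 had a called promoter region. At 5008 promoter regions called in all 4 lists, the median summit height was 27 fragments untreated, 31 with TGF-β, 27 after set 1 and 24 after set 2. Scaled by depth these medians differed by a log2 ratio of 0.11 for TGF-β against untreated, -0.29 for set 1 against siControl TGF-β and -0.71 for set 2 against siControl TGF-β, so cluster ratios are also given relative to these promoters. With 1 library per group, a difference in enrichment between libraries and a difference between groups cannot be told apart, and neither can fewer open cells and less openness per cell.

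For each cluster and library the called regions were counted, and the fragments at the summits of those regions were summed and divided by the depth, giving fragments per M (mega) reads, or FPM. A region without a called peak added nothing to its library's sum, so a ratio of sums counts regions entering or leaving a list together with changes in height. It is a description of the lists and not a fold change in openness. The ratio over the regions called in both lists is given beside some of the extreme values, but not beside all of them. Of the 1457 clustered regions, 868 (59.6%) were called in the untreated list, 1179 (80.9%) with TGF-β, 923 (63.3%) after set 1 and 615 (42.2%) after set 2. The corresponding shares of the other distal regions were 55.2%, 78.2%, 58.4% and 35.4%. The median cluster sum was 5.17 FPM untreated, 7.90 FPM with TGF-β, 5.41 FPM after set 1 and 2.66 FPM after set 2. Every region of a cluster was called in 16, 75, 14 and 1 clusters, and no region was called in 2, 0, 4 and 14 clusters, in the same order of libraries.

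The largest cluster held 12 regions over 55.4 kb of chromosome 15, across Card10, Cdc42ep1 and Lgals2. Card10 encodes a scaffold of NF-κB signalling and Cdc42ep1 an effector of the Cdc42 GTPase that shapes the actin cytoskeleton. Its summed fragments were 294 untreated, 359 with TGF-β, 383 after set 1 and 374 after set 2, from 10, 10, 11 and 10 called regions. Scaled by depth these were 19.2, 22.1, 22.2 and 18.1 FPM, so the 4 libraries lay close together, and 8 of the 12 regions were called in all 4. The printed Card10 region had 35, 52, 49 and 42 fragments, and the region at 13.2 kb from the cluster start was called only after knockdown, with 30 fragments with set 1 and 44 with set 2. The log2 ratio was 0.20 (-0.03 to 0.43) for TGF-β against untreated, 0.01 (-0.20 to 0.22) for set 1 and -0.29 (-0.50 to -0.07) for set 2.

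The Tg cluster, with 11 regions over 60.5 kb of chromosome 15, had the longest span. It began in the thyroglobulin gene and ended in Ccn4, which encodes a secreted matricellular protein of the Wnt response. The sums were 104 fragments untreated, 295 with TGF-β, 295 after set 1 and 256 after set 2. All 3 TGF-β libraries stood above the untreated library, at 18.1, 17.1 and 12.4 FPM against 6.80 FPM. The median local background of the Tg cluster was also lowest untreated, at 1.68 times the genome-wide floor, against 2.47 with TGF-β and 3.47 and 3.60 with sets 1 and 2, and its part in the sums was not tested. At the region 34.0 kb from the start no peak was called in the untreated list while 46, 41 and 35 fragments were found in the others. The log2 ratio was 1.41 (1.09 to 1.75) with TGF-β, or 0.68 (0.32 to 1.04) over the 5 regions called in both lists, and -0.09 (-0.32 to 0.15) with set 1 and -0.55 (-0.80 to -0.30) with set 2 against siControl TGF-β.

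The Dlgap1 cluster held 11 regions over 41.3 kb of chromosome 17, all in introns of Dlgap1, which encodes a scaffold of neuronal synapses. The protein-coding TSS nearest to its middle was that of Tgif1, a repressor of Smad-dependent transcription, at 122.1 kb. Its sums were 196, 352, 216 and 174 fragments, or 12.8, 21.6, 12.5 and 8.42 FPM. Here the library with TGF-β and control siRNA stood alone at the top, and the regions at 14.0 and 32.5 kb were called in it only, with 31 and 27 fragments. The printed region was called in all 4 lists with 35, 46, 39 and 31 fragments. The Card10, Tg and Dlgap1 clusters therefore differed in which libraries were high, although each was among the 3 with the most regions.

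**Figure D1:**
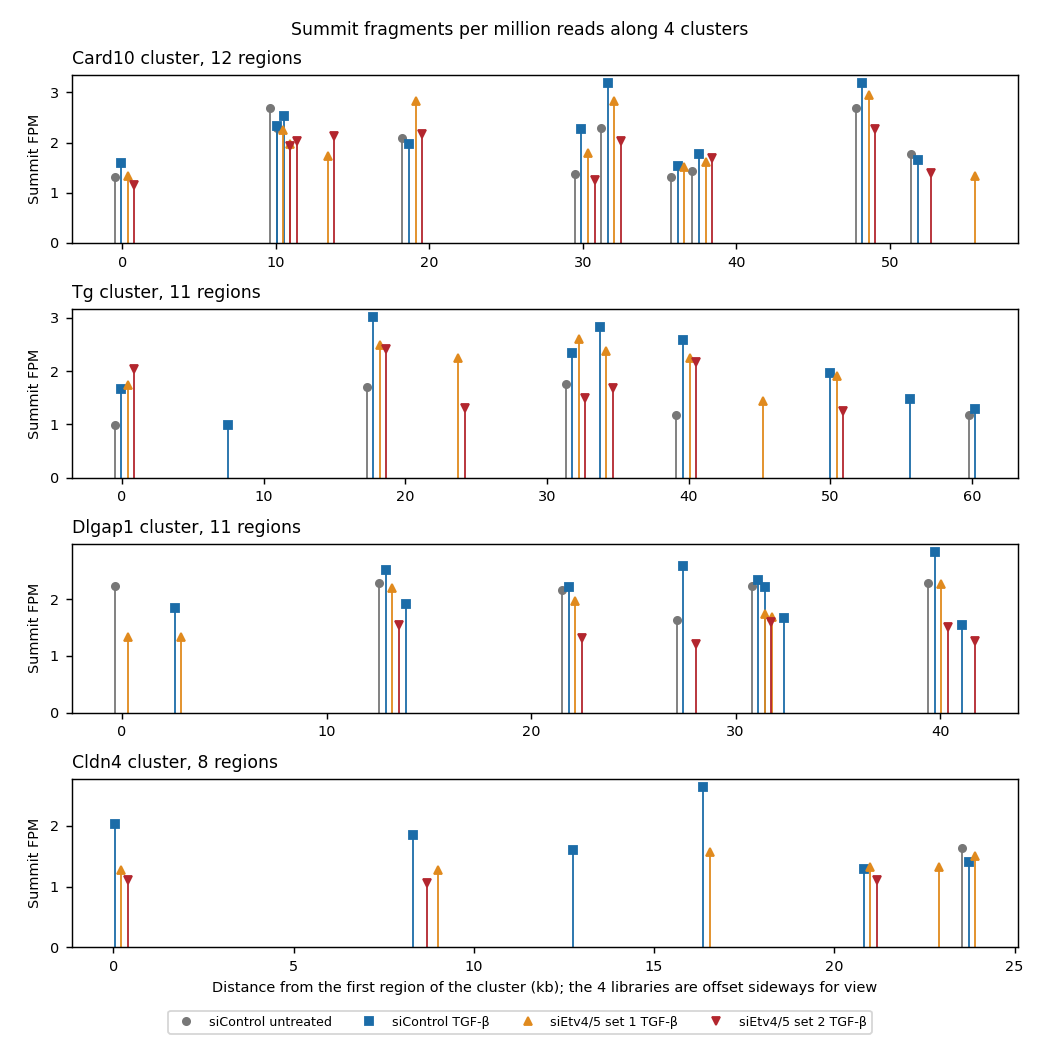
Summit FPM (vertical axis) of each called region against the distance in kb from the first region (horizontal axis) in the Card10, Tg, Dlgap1 and Cldn4 clusters, with a symbol for each of the 4 libraries. Most Card10 regions carry all 4 symbols, several Tg regions lack the untreated symbol, and the Cldn4 cluster carries an untreated symbol at its last region only.

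The other clusters of the 20 with the most regions varied in the order of the libraries. The Stn1 cluster lay in the gene of a telomere maintenance protein, 35.0 kb from the TSS of Sh3pxd2a, which encodes a scaffold of invadopodia. Its sums were 120, 300, 154 and 134 fragments, with 4, 9, 5 and 5 of 10 regions called. The cluster in Bcl2l1, the gene of the anti-apoptotic protein Bcl-xL, had 149, 253, 167 and 50 fragments. Only 2 of its 10 regions were called with set 2, against 9 with TGF-β alone. The Il34 cluster, at the gene of a cytokine that binds the Csf1 receptor, had 189, 253, 162 and 208 fragments and was called at 9 of 10 regions with set 2, more than in any other list.

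At Krt8, which encodes a keratin of simple epithelia, the sums were 147, 146, 128 and 101 fragments, so the untreated and TGF-β libraries did not differ beyond counting error (-0.10, -0.44 to 0.24). At Ahnak, the gene of a giant scaffold protein, 271, 275, 264 and 164 fragments were summed, and at Dlx3, a homeobox gene of epidermal differentiation, 170, 186, 139 and 71. In these 3 clusters TGF-β and untreated did not differ beyond counting error, the set 2 library was the lowest, and at Dlx3 the set 1 library was lower too, with a log2 ratio of -0.51 (-0.83 to -0.18). At Inf2, which encodes a formin that builds actin filaments, the order was another, with 58, 220, 140 and 98 fragments and a log2 ratio of 1.83 (1.41 to 2.28) with TGF-β, or 0.36 (-0.15 to 0.87) over the 3 regions called in both lists. At Socs3, the gene of a feedback inhibitor of cytokine signalling, the sums were 192, 267, 198 and 64 fragments, and 3 of 9 regions were called with set 2.

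**Figure D2:**
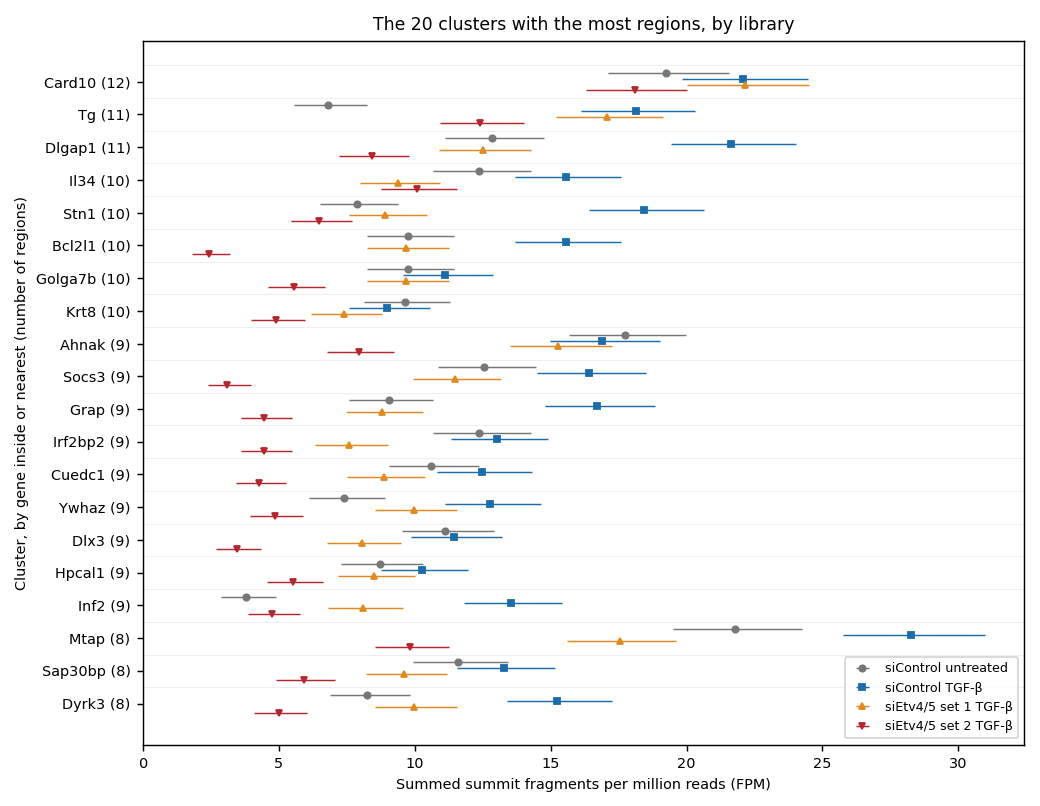
Summed FPM (horizontal axis) of the 20 clusters with the most regions, named by the gene inside or nearest with the number of regions in brackets; points are the 4 libraries and bars the exact Poisson 95% interval of the sum. The siControl TGF-β library is above the set 2 library in all 20 clusters, and the Card10 and Mtap clusters have the highest sums.

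The first comparison of the design asks which regions open or close with TGF-β. With TGF-β against untreated siControl cells, 103 of the 244 clusters with called regions in both lists (42.2%) were at least 1.5-fold higher and 2 (0.82%) at least 1.5-fold lower in depth-scaled sum. The median log2 ratio over clusters was 0.50, with quartiles of 0.19 and 0.94. More regions were called in 162 clusters, fewer in 28 and as many in 56. Scaled to promoters instead of depth, 88 clusters were higher and 5 lower, and the median was 0.40.

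Of the clustered regions called with TGF-β, 39.8% (37.0 to 42.6) had no peak in the untreated list, against 44.7% over all distal regions. Of those called untreated, 18.2% (15.8 to 20.9) were absent with TGF-β, against 21.9% over all distal regions. Among the 710 clustered regions called in both lists, 11.0% were at least 1.5-fold higher, against 13.5% over all distal regions, and 1.41% at least 1.5-fold lower, against 1.81%. Summed over such regions alone, the median cluster log2 ratio was 0.20, against 0.11 at the promoters, and 7 clusters were past 1.5-fold upward and 1 downward. These calls were counted by the rule, so the shares describe the clusters and nothing is read from their distance to the background.

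The cluster with the highest ratio lay between genes on chromosome 7, with the TSS of Asb7, which encodes a ubiquitin ligase subunit, nearest at 95.03 kb. Its fragments numbered 19 untreated, 163 with TGF-β, 91 after set 1 and 21 after set 2. A single region, the one printed above, was called untreated and with set 2, while all 7 were called with TGF-β and 4 with set 1. The Asb7 log2 ratio was 3.01 (2.32 to 3.78) with TGF-β, and 0.87 (0.04 to 1.75) at the 1 region called in both lists.

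The Cldn4 cluster held 8 regions at the gene of claudin-4, a tight junction protein of epithelium. Its sums were 25, 176, 143 and 68 fragments, and only the last region was called untreated. The log2 ratio of the sums was 2.73 (2.12 to 3.39), whereas at the 1 region called in both lists it was -0.21 (-1.09 to 0.67), so the higher sum came from regions that only the TGF-β list held. The printed Cldn4 region had 43 fragments with TGF-β and 27 with set 1 and was not called in the other lists. The Tcim cluster, near the gene of a regulator of Wnt signalling, had 17, 133, 58 and 37 fragments. The Tns1 cluster, in the gene of a focal adhesion protein, had 20, 113, 67 and 65. The Hacd4 cluster, near a gene of fatty acid elongation, had 23, 127, 95 and 24. In each of these 3 clusters the untreated list contributed a single region.

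In 2 clusters with at least 50 fragments no region was called untreated. The cluster nearest to Sox4, a transcription factor linked to EMT, had 86 fragments with TGF-β, 72 after set 1 and 18 after set 2. The second of 2 clusters in Sept9, the gene of a septin of the cytoskeleton, had 81 fragments with TGF-β, 139 after set 1 and no called region after set 2. No ratio is given for these, because 1 of the sums is empty.

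Lower sums with TGF-β were rare. The Rpl14 cluster, whose nearest coding TSS was that of a ribosomal protein gene, had 73 fragments untreated, 21 with TGF-β, 62 after set 1 and 67 after set 2. It was the cluster with the lowest ratio with TGF-β, -1.89 (-2.66 to -1.17), and the highest with either knockdown, 1.48 (0.74 to 2.26) with set 1 and 1.33 (0.60 to 2.11) with set 2. These 3 comparisons share the siControl TGF-β library, in which 1 of its 5 regions was called. At that region, called in all 4 lists, the Rpl14 log2 ratios were -0.02 (-0.97 to 0.94) with TGF-β, -0.31 (-1.30 to 0.67) with set 1 and -0.49 (-1.46 to 0.48) with set 2, so the knockdown direction turned and no interval lay off 0. The next lowest were the cluster in Macf1, which encodes a linker of actin and microtubules, with 64 and 45 fragments and no called region after knockdown, and the cluster in Ctif, with 89, 65, 25 and 21. The Galk2 cluster had 135, 101, 144 and 82 fragments, and the cluster of Phlda3, a p53 target, had 102, 77, 78 and 40.

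The second comparison asks which regions depend on Etv4 and Etv5 in the presence of TGF-β. With set 1 against siControl TGF-β, 118 of 242 clusters (48.8%) were at least 1.5-fold lower and 6 (2.48%) at least 1.5-fold higher. The median log2 ratio was -0.57, with quartiles of -0.92 and -0.27, and fewer regions were called in 163 clusters, more in 35. With promoter scaling, which moves each set 1 log2 ratio up by 0.29, 66 clusters were lower and 13 higher, and the median was -0.28. Over regions called in both lists, with depth scaling, 13 clusters were lower and 1 higher, and the median was -0.29. The promoter log2 ratio on the same depth scale was also -0.29, so these shared regions were about as much lower as the promoters.

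Among clustered regions called with siControl TGF-β, 32.1% (29.5 to 34.8) were absent with set 1, against 38.2% over all distal regions. Of those called with set 1, 13.2% (11.2 to 15.6) had no peak in siControl TGF-β, against 17.6%. Among the 801 regions called in both, 15.6% were at least 1.5-fold lower, as over all distal regions (15.6%), and 0.749% at least 1.5-fold higher, against 0.824%. As above, the rule used these calls, and the shares are a description.

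The lowest set 1 ratios among clusters with at least 50 fragments were at Diras2, Bmf, Abhd2, Uaca and Wnt3a. The Uaca cluster, 12.4 kb from the TSS, had 136, 205, 38 and 60 fragments, and its log2 ratio was -2.52 (-3.06 to -2.01) with set 1 and -2.12 (-2.56 to -1.70) with set 2. Over regions called in both lists these Uaca ratios were -0.70 (-1.33 to -0.08) and -1.05 (-1.54 to -0.57). Its printed region was the only one called with set 1, and had 58 fragments in both control libraries, 38 with set 1 and 32 with set 2. The cluster in Bmf, the gene of a pro-apoptotic BH3-only protein, had 128, 109, 20 and 26 fragments, and at the 1 region called in both lists its set 1 ratio was -0.41 (-1.33 to 0.50). Both clusters were well called in the untreated list, so their order was unlike that of Asb7 or Cldn4. The Diras2 cluster had 18, 92, 16 and 0 fragments, the Abhd2 cluster 47, 65, 12 and 0, and the Wnt3a cluster, which spans the genes of the ligands Wnt3a and Wnt9a, 32, 62, 19 and 0, where 0 means that no region was called. In the Wnt3a cluster, as in a cluster of the gene model Gm20388, each region was called in a single list, the fewest of all clusters. At Smg6 and S100a11 no region was called with set 1, against 53 and 75 fragments in siControl TGF-β.

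Higher sums with set 1 were found at few clusters besides Rpl14. The first of 2 clusters nearest to Myc, 148.0 kb from its TSS, had 57, 67, 151 and 99 fragments with 2, 2, 5 and 3 called regions. The Clmp cluster, in the gene of an adhesion molecule, had 37, 56, 106 and 33. The Sfta2 cluster had 57, 50, 91 and 41. In the Clmp and Sfta2 clusters the set 2 library had the lowest FPM, so the higher sum was seen with set 1 and not with set 2. At the regions called in both lists the set 1 ratios were 0.11 (-0.38 to 0.61) for the first Myc cluster, -0.04 (-0.81 to 0.73) for Clmp and 0.09 (-0.66 to 0.85) for Sfta2, and none differed from 0 beyond counting error.

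With set 2 against siControl TGF-β, 218 of 232 clusters (94%) were at least 1.5-fold lower and 1 (0.431%), Rpl14, was higher. The median log2 ratio was -1.50, with quartiles of -1.96 and -1.11. Fewer regions were called in 219 clusters and more in 7. With promoter scaling, which moves each set 2 log2 ratio up by 0.71, 145 clusters were lower and 4 higher, and the median was -0.79. Over regions called in both lists, with depth scaling, 161 clusters were lower and 0 higher, and the median was -0.69. The promoter log2 ratio on the same depth scale was -0.71, so these shared regions were about as much lower as the promoters. Counts over shared regions with promoter scaling are not given here.

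Of the clustered regions called with siControl TGF-β, 52.5% (49.6 to 55.3) were absent with set 2, against 59.8% over all distal regions. Of those called with set 2, 8.94% (6.94 to 11.5) had no peak in siControl TGF-β, against 12.1%. Among the 560 regions called in both, 65.4% (61.3 to 69.2) were at least 1.5-fold lower, against 58.1% over all distal regions, and 0 were at least 1.5-fold higher, against 0.04%. The rule used these calls too, and nothing is read from the shares.

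The lowest set 2 ratio was in the first Sept9 cluster, with 94, 226, 159 and 23 fragments from 4, 8, 6 and 1 of its 8 regions, a log2 ratio of -3.64 (-4.33 to -3.02), or -0.58 (-1.44 to 0.28) at the 1 region called in both lists. The cluster in Cbx7, which encodes a Polycomb protein, had 42, 145, 100 and 18. The Kmt2e cluster had 58, 145, 63 and 19, and the cluster near Bdkrb2, a bradykinin receptor gene, 63, 138, 76 and 20. In each of these, and in Asb7, 1 region was called with set 2, and at Kmt2e it was a region that siControl TGF-β lacked. No region was called with set 2 in 12 clusters that had at least 50 fragments over the pair. They were the clusters of Egr2, Usp44, Wnt3a, Specc1, Mink1, Sept9 (the second), Diras2, Ccser1, Gadd45a, Plekhg6, Abhd2 and Cldn23, and their sums in siControl TGF-β ran from 62 fragments at Wnt3a to 145 at Specc1.

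The highest set 2 ratios after Rpl14 were in the A1bg cluster, 531.1 kb from the nearest coding TSS, with 26, 111, 130 and 194 fragments, and the first Myc cluster. At Kif3c, the gene of a kinesin motor, 70, 82, 71 and 105 fragments were summed, and at Asap1, which encodes a regulator of Arf GTPases, 110, 135, 155 and 142. Of these only the A1bg interval lay above 0 (0.46, 0.12 to 0.81). The most evenly called cluster of all was that nearest to Ifnb1, the interferon-β gene, in which all 5 regions were called in all 4 lists, with 190, 174, 160 and 155 fragments.

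**Figure D3:**
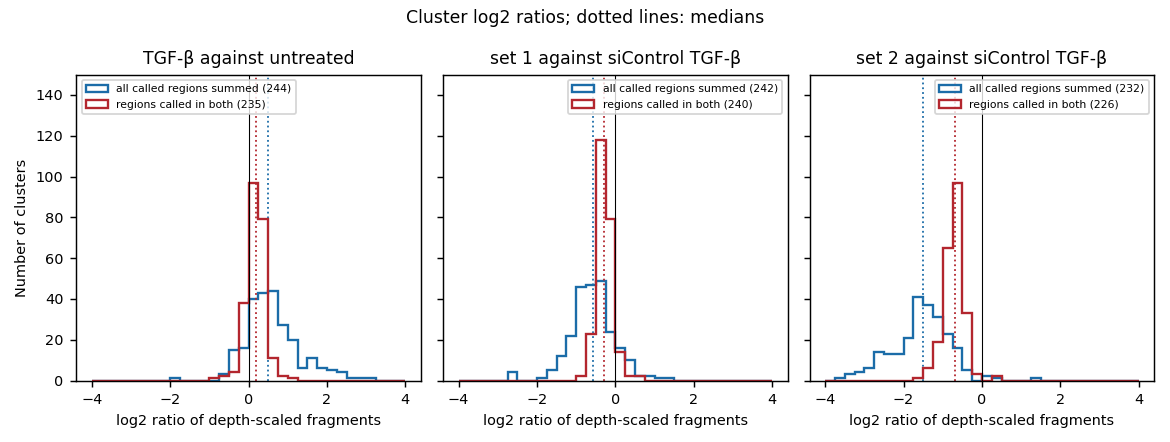
Number of clusters (vertical axis) by log2 ratio of depth-scaled fragments (horizontal axis) in the 3 comparisons, with all called regions summed or with regions called in both lists only; dotted lines are medians. The summed medians are 0.50, -0.57 and -1.50, and those over regions called in both are 0.20, -0.29 and -0.69.

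The choice of clusters rests in part on the library with the most peaks. When clusters were defined without siControl TGF-β, 137 were found, and the median log2 ratio in their spans was 0.27 for TGF-β against untreated, -0.36 for set 1 and -1.34 for set 2. Defined without the untreated list, 184 clusters gave a median of 0.61 for TGF-β. Defined without set 1, 205 clusters gave -0.65 for set 1, and without set 2, 233 clusters gave -1.52 for set 2. Each sign was the same in all of these definitions.

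Peaks of a library could also be read at places that its own calls did not choose. Of the peaks that no other list shared, the untreated library had 28 in the spans of clusters made from the other 3 lists, or 5.69 per Mb (3.78 to 8.23), against 0.821 per Mb elsewhere. The siControl TGF-β library had 36 private peaks inside such spans, or 10.2 per Mb (7.15 to 14.1), against 1.83 outside. For set 1 there were 22, or 4.12 per Mb (2.58 to 6.23), against 0.641. For set 2 there were only 7, or 1.14 per Mb (0.458 to 2.35), against 0.188. The density inside was 5.56 to 6.94 times that outside in each library. Outside means all the rest of the autosomes, and the part of local background in these densities was not tested.

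A single protein-coding gene overlapped the span of 119 clusters, more than 1 overlapped that of 23, and 104 had none and were tied to the nearest coding TSS. In this way 262 genes were tied to a cluster, 1.26% of all autosomal coding genes. Genes with more than 1 cluster were Sept9, Myc, Txn2, Tgm2, Tns3, Sgms1, Ifne and the gene model Gm20388. A promoter region was called within the span of 32 clusters. Of the clustered regions, 48.4% lay in introns, 48.0% between genes and 3.57% in exons, against 51.3%, 45.5% and 3.25% of the other distal regions.

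Genes of YAP, TAZ and TEAD signalling, which reads cell shape and density, were tied to clusters at 4 of 12 list members. They were Ccn1, a secreted target of the pathway, the factors Tead1 and Tead4, and Wwtr1, which encodes the co-activator TAZ. Over all autosomal coding genes the tied share was 1.26%, without matching for gene length or spacing. The Ccn1 cluster had 59, 139, 133 and 55 fragments over 7 regions. The Tead1 cluster had 94, 146, 103 and 53, the Tead4 cluster 64, 81, 55 and 18, and the Wwtr1 cluster 173, 203, 108 and 82. All 4 had their highest FPM with siControl TGF-β and their lowest with set 2, which was also the order of the medians over all clusters.

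Of genes with roles in EMT, 3 of 18 were tied to a cluster, against 1.26% of all autosomal coding genes. The cluster nearest to Snai1, a repressor of E-cadherin, had 83, 107, 114 and 108 fragments, or 5.43, 6.58, 6.60 and 5.23 FPM. The intervals of all 3 log2 ratios of its sums included 0. Over the 3 regions called in both lists of a pair, the Snai1 ratios were 0.28 (-0.15 to 0.71) with TGF-β and -0.23 (-0.64 to 0.18) with set 1. With set 2 this ratio was -0.64 (-1.07 to -0.22), against a median of -0.69 over all clusters with such regions. The cluster nearest to Hmga2, a chromatin protein, lay 139.4 kb from its TSS and had 156, 156, 131 and 81 fragments. The cluster in Actn1, which encodes an actin crosslinker, had 73, 112, 92 and 50. Of 45 extracellular matrix and protease genes, 2 were tied. The cluster nearest to Plau, the urokinase gene, had 22, 117, 69 and 47 fragments, and 5 of its 6 regions were called with TGF-β against 1 untreated. At the 1 region called in both of these lists, the Plau log2 ratio with TGF-β was 0.04 (-0.86 to 0.94). The cluster in Lama5, a laminin chain gene, had 48, 105, 50 and 23.

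Of the adhesion genes, 3 of 33 were tied: Cldn4 above, Itgb5, an integrin subunit gene, with 97, 123, 120 and 23 fragments, and Tjp1, the gene of ZO-1, with 86, 84, 63 and 67. Of the keratin and epithelial differentiation genes, 2 of 32 were tied, Krt8 above and Krt80 with 125, 127, 68 and 44. The set 1 log2 ratio was -0.99 (-1.43 to -0.55) at Krt80 and -0.28 (-0.63 to 0.08) at Krt8, with overlapping intervals. Over regions called in both lists these ratios were -0.41 (-0.89 to 0.07) and -0.03 (-0.40 to 0.34). Of the TGF-β pathway genes, 2 of 26 were tied. The cluster in Smad3, a mediator of the signal, had 85, 141, 111 and 22 fragments, and that of Smad7, its feedback inhibitor, 48, 146, 76 and 67. The Smad7 cluster had all 6 regions called with TGF-β and 2 untreated. Over the 2 regions called in both of these lists, the Smad7 log2 ratio with TGF-β was 0.28 (-0.29 to 0.85). Of 25 Ras-ERK genes, 1 was tied, Spred2, an inhibitor of the pathway, with 57, 95, 68 and 45. The span of this cluster held no coding gene, and the Spred2 TSS was nearest at 87.7 kb. None of the 12 AP-1 subunit genes, 16 ETS factor genes or 4 RUNX genes, and none of the 7 blood, 8 neuron and 7 muscle genes, was tied to a cluster. The share over all autosomal coding genes was 1.26%. The lists were short and not matched for gene length or spacing, so nothing is read from their counts, whether 0 or higher.

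Regions in clusters were higher than other distal regions and lay on a higher local background. The median summit had 24, 27, 25 and 24 fragments in clusters and 20, 22, 21 and 21 elsewhere. The median background at the summit, which is taken from the surrounding reads of the library itself, was 2.24, 2.30, 2.18 and 2.18 times the genome-wide floor in clusters and 1.47, 1.47, 1.44 and 1.48 times elsewhere. The fold enrichment over that background was therefore lower in clusters, at 7.26, 7.51, 7.09 and 6.25 against 7.92, 8.31, 7.73 and 7.06. Called in all 4 lists were 29.3% of the clustered regions and 22.8% of the others. The clusters were chosen from the same calls, so these values are a description and support nothing further. Regions of a cluster also share a neighbourhood, so the intervals of shares of regions, which count regions as separate, are too narrow.

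The same values are given by the number of regions in a chain, which the calls also set. Called in all 4 lists were 20.3% of single regions, 24.8% in chains of 2, 26.3% in chains of 3, 29.9% in chains of 4, 28.4% in clusters of 5 or 6 and 31.6% in clusters of 7 or more. The median summit in siControl TGF-β went from 1.29 FPM for single regions to 1.66 FPM in clusters of 7 or more, and the local background from 1.299 to 2.379 times the floor. Chains of 4, just below the rule, were close to clusters of 5 or 6 on each of these measures.

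**Figure D4:**
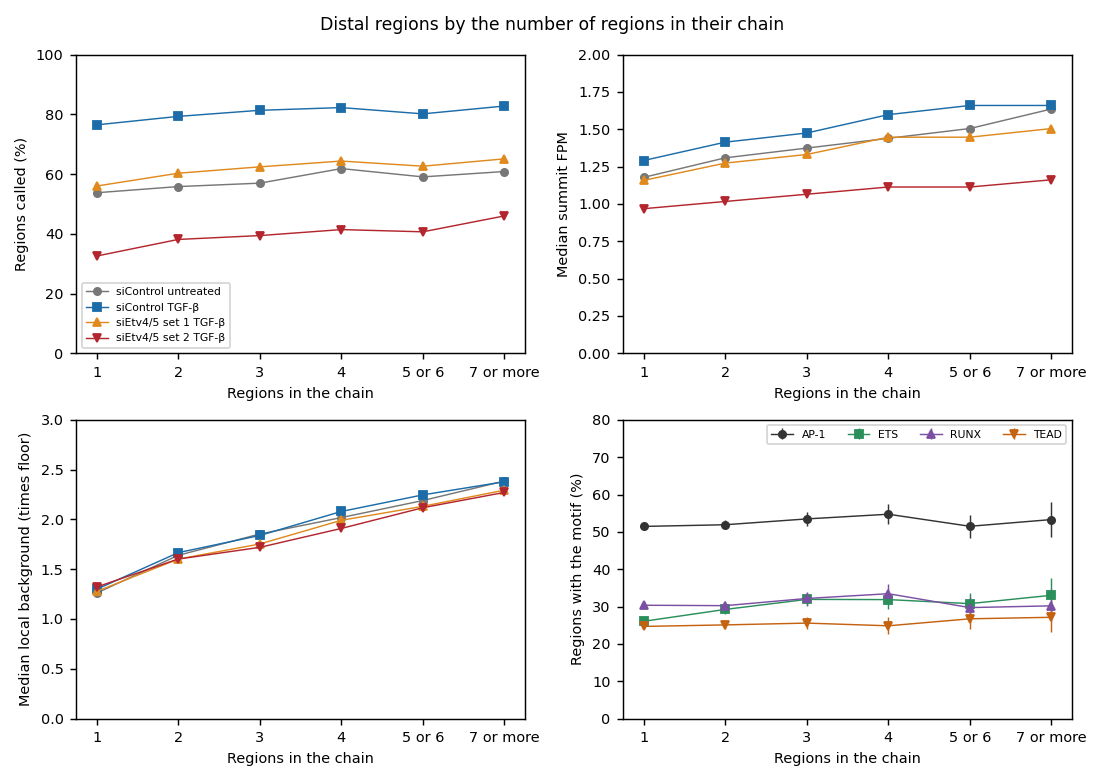
Distal regions by the number of regions in their chain (horizontal axis): share called (%), median summit FPM and median local background (times the genome-wide floor) in each of the 4 libraries, and the share (%) with each motif with Wilson 95% intervals. Summit level and background are higher in clusters of 7 or more than in single regions in every library, whereas the AP-1 share stays between 51.5% and 54.7%.

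Sequence was not used to choose the clusters. AP-1 letters stood within 300 bases centred on the summit in 52.0% (49.5 to 54.6) of the clustered regions and in 52.0% (51.4 to 52.7) of the other distal regions, against 7.84% of 31396 RefSeq promoters of the same length. ETS letters were found in 31.4% (29.1 to 33.9) of the clustered and 28.0% (27.4 to 28.6) of the other distal regions, and in 32.2% of the promoters. RUNX letters were found in 29.9% and 30.7%, and TEAD letters in 26.8% and 24.9%, with overlapping intervals; the promoter shares were 16.7% and 14.6%. Only the ETS intervals did not overlap. With ETS letters ending in T the shares were 8.99% (7.63 to 10.6) and 7.68% (7.34 to 8.03), and these intervals overlapped. In windows of 500 bases the ETS shares were 44.4% (41.9 to 47.0) and 39.2% (38.5 to 39.8), without overlap. The median GC content was also higher in clusters, 50.3% against 46.7%. The ETS share was not particular to clusters, since it was 31.9% in chains of 3 and of 4 regions and 30.8% in clusters of 5 or 6, against 26.0% of single regions. The part of base composition in the ETS share was not tested.

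Within clusters the motif shares differed between regions of different call patterns. AP-1 letters were found in 58.8% (54.3 to 63.2) of the 469 clustered regions called with TGF-β but not untreated, in 54.1% (50.4 to 57.7) of the 710 called in both controls, and in 26.6% (20.3 to 34.0) of the 158 called untreated but not with TGF-β. The same 3 shares outside clusters included 57.6% for the first and 24.7% for the last. Of clustered regions called in all 4 lists, 59.3% (54.5 to 63.8) held AP-1 letters, against 65.1% (63.8 to 66.4) of the corresponding other distal regions. Among the 327 clustered regions called with siControl TGF-β but with neither siRNA set, ETS letters were found in 27.8% (23.3 to 32.9). The share of all clustered regions, which include these, was 31.4% and lay within that interval. Outside clusters the corresponding shares were 25.9% of 5913 regions and 28.0% of all other distal regions.

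Counted over all its regions, almost every cluster held several motifs. At least 1 region held AP-1 letters in 240 of the 246 clusters, ETS letters in 219, RUNX letters in 210 and TEAD letters in 200, and all 4 motifs occurred in 143. Per region the shares were 52.0%, 31.4%, 29.9% and 26.8%, against 52.0%, 28.0%, 30.7% and 24.9% of the other distal regions. A cluster was counted once any region held a match, so these counts rise with the number of regions. The counts to be had from cluster size and these shares alone were not computed, so nothing particular to clusters is read from them. The 6 clusters without AP-1 letters were those of Usp44, Wnt3a, Nr1d1, Actg1, Zfp36l2 and Nfe2l3. The 6 with AP-1 letters in every region were those of Rai14, Asap1, Zfp438, Usp6nl, Ccser1 and Gadd45a. The Card10 cluster had AP-1 letters in 7 of 12 regions, and the Dlgap1 cluster had ETS letters in 7 of 11.

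Clusters were themselves close together in places. Within 1 Mb of another cluster lay 101 of the 246, in 39 groups, of which 14 held 3 or more. The largest group had 7 clusters with 44 regions over 1.08 Mb of chromosome 4, from near Hacd4 past the interferon genes and Mtap, an enzyme of methionine salvage, to Cdkn2b, a cell cycle inhibitor, and Dmrta1. Its summed FPM was 66.7 untreated, 93.8 with TGF-β, 63.4 after set 1 and 33.6 after set 2. The Mtap cluster alone had 333, 460, 303 and 203 fragments in 8 regions, the highest total of any cluster in the siControl TGF-β library.

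The median background of the chromosome 4 group was 3.29, 3.45, 2.66 and 2.44 times the floor, so the libraries with the higher sums also had the higher background there. In the 3 clusters near A1bg and Myc on chromosome 15 the background was lowest untreated and highest with set 2, at 2.92, 4.26, 5.32 and 5.37 times the floor, and 6, 9, 11 and 9 of 15 regions were called. Their summed FPM was 10.9, 18.9, 23.2 and 18.3. The part of this background in the cluster sums was not tested. The second largest group, 5 clusters with 35 regions from Sept9 to C1qtnf1 on chromosome 11 and with Socs3 among them, had 31.5, 52.4, 42.7 and 10.1 FPM on a background of 2.47, 2.53, 2.84 and 1.93 times the floor.

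**Figure D5:**
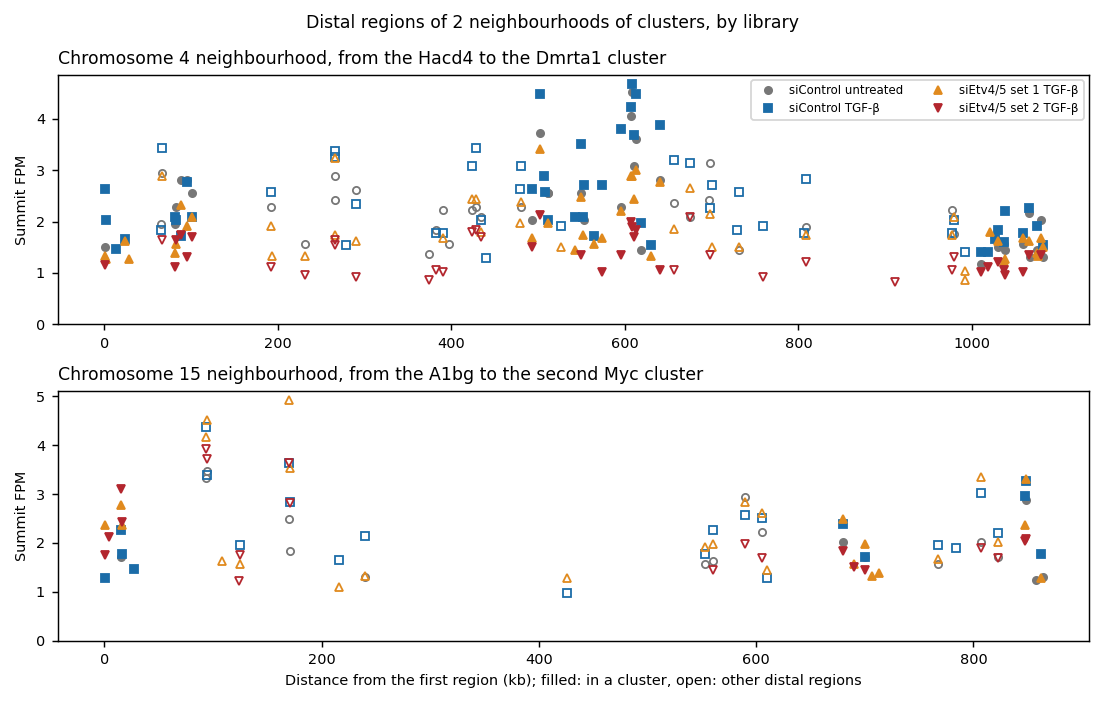
Summit FPM (vertical axis) of distal regions against the distance in kb from the first region (horizontal axis) in the group of 7 clusters on chromosome 4 and the group of 3 clusters on chromosome 15, with a symbol for each library, filled inside clusters and open outside. Summed FPM is 93.8 with siControl TGF-β and 33.6 with set 2 in the first group, and 18.9 and 18.3 in the other.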

How the data were processed

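FAIRE-seq of EpRas cells was deposited as 1 peak list per group for 4 groups. Per the methods, the authors cut reads to 36 bp and mapped these against mm10 by bowtie2. Peak calling used MACS2, limited to a q-value of 0.0001. The submitters' processing notes name Bowtie and MACS2 2.1.0, and the methods give another MACS2 version. The methods describe 2 biological replicates, and how they enter each list is not given in the sources used here. The deposited columns hold the fold enrichment at the summit (a ratio of pileup to local background), the −log10 of the p-value and of the q-value, and an integer score made from the q-value, which was not used.

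The summit pileup was recovered from the fold enrichment and the p-value, with the caller's pseudocount of 1, and was whole within 0.001 for 100% of peaks. Depth was estimated from the lowest background, the effective genome size of 1.87 Gb and the fragment length, taken as the shortest peak width, and FPM divides by that estimate. Peaks were merged, split at 2 kb from the TSSs of GENCODE M21 and joined at 12.5 kb. Intervals are Wilson for shares and exact for sums and their ratios, and cover counting error only, since fragments after PCR are not independent molecules. A ratio past 1.5-fold was counted. Python 3.11.15, numpy 2.4.6, pandas 2.3.3, scipy 1.17.1 and pysam 0.24.0 were used, and the recovery and joining steps were checked on simulated data. Sequences are of the GRCm38 (mm10) reference from RefSeq, and promoters are those of RefSeq.

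Named clusters were the 20 with the most regions, the 5 highest and 5 lowest ratios of each comparison among clusters with at least 50 fragments, those with no called region in a library of the pair, the extremes of lists per region and those tied to a listed gene. Members, lists and tests were chosen with earlier results of these data known, and the clusters with a printed sequence were picked after their values were seen. The sequence of 1 further region is not reported here. Alternatives were other joining gaps, minimum sizes, scalings, list lengths, motif windows and left-out libraries.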

Additional observations from a re-analysis of the deposited data

Results flagged for a closer look

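In 5 of the 230 clusters with a ratio for both siRNA sets, the interval of the set 1 log2 ratio lay above 0 and that of the set 2 log2 ratio below 0. Both are set against the same siControl TGF-β library, and the difference between the sets was not tested. At C1qtnf1 the ratios were 0.44 and -0.59, from 86, 84, 121 and 71 fragments in the untreated, siControl TGF-β, set 1 and set 2 libraries. At Sfta2 they were 0.78 and -0.63, at Galk2 0.43 and -0.65, and at Clmp 0.83 and -1.11. At Trabd2b they were 0.67 and -1.70, from 16, 51, 86 and 20 fragments. With promoter scaling the set 2 interval stayed below 0 in 1 of the 5, Trabd2b, at -0.98. Over the regions called in both lists the set 1 ratios were -0.35 (-0.83 to 0.13) at C1qtnf1, 0.09 (-0.66 to 0.85) at Sfta2, -0.09 (-0.50 to 0.33) at Galk2, 0.58 (lower bound -0.12) at Trabd2b and -0.04 (-0.81 to 0.73) at Clmp. All 5 intervals then included 0, from fewer fragments than in the full sums. The set 1 ratio turned below 0 at C1qtnf1, Galk2 and Clmp. It stayed above 0 at Sfta2 and at Trabd2b, where 0.58 was close to the 0.67 of the full sum. The set 2 ratios over such regions are not given here, and the source of the opposite signs was not tested.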

How the results depend on the processing

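Of 154 recomputed values 94 moved by little, 60 moved and 0 changed sign. Only the median log2 ratios could change sign, since counts and shares cannot fall below 0. For counts, moving by little was a wide label. It included a drop from 246 to 169 clusters, and from 1457 to 972 regions, with regions over 5 kb from a TSS. Depth limits every value, since a region below the calling limit has no value in its list. No paired analysis was possible because each group holds 1 library. With a joining gap of at most 5 kb there were 18 clusters with 98 regions, the median log2 ratio was -0.98 with set 1 and -1.79 with set 2, and 45.9% of regions were absent with set 1. With a gap of 25 kb there were 685 clusters with 4608 regions, and with at least 4 regions 563 with 2725. With at least 10 regions there were 8 clusters with 84 regions, the medians were -0.48 and -0.94 with sets 1 and 2, and 29.4% and 41.2% of regions were absent. With equally long lists there were 81 clusters with 460 regions, medians of 0.30 with TGF-β, -0.38 after set 1 and -0.89 after set 2, and 34.4% absent with set 2. With clusters defined without 1 library in turn, there were 137 to 233 clusters and 839 to 1380 regions. The medians then ran from 0.27 to 0.61 with TGF-β, from -0.65 to -0.36 with set 1 and from -1.52 to -1.34 with set 2. The share absent ran from 27.8% to 40.2% untreated, from 21.9% to 32.6% with set 1 and from 44.7% to 52.8% with set 2, each lowest without siControl TGF-β.

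Over regions called in both libraries only, the medians were 0.20, -0.29 and -0.69 for TGF-β, set 1 and set 2, with 7 clusters past 1.5-fold upward and 1 downward, 1 upward and 13 downward, and 0 upward. With all peaks of a region summed, 2 clusters were past it upward with set 2. With promoter scaling the medians were 0.40, -0.28 and -0.79, with 5 clusters downward with TGF-β, 13 upward and 66 downward with set 1, and 4 upward and 145 downward with set 2. With no scaling the medians were 0.59, -0.48 and -1.16, with 1 cluster downward with TGF-β and 2 upward with set 2. Summed fold enrichment gave -0.47 with set 1 and -1.21 with set 2. In windows of 500 bases AP-1, ETS, RUNX and TEAD letters were found in 55.3%, 44.4%, 41.3% and 34.9% of clustered regions, and ETS letters ending in T in 8.99%. The use of all annotated transcripts for the TSSs was chosen after seeing the data. The cause of these shifts was not tested.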

Other observations

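The local background of called peaks varied between large stretches of the genome and between libraries. Over 744 windows of 1 Mb with enough peaks in every library, its median was 1.63, 1.61, 1.56 and 1.54 times the genome-wide floor in the untreated, siControl TGF-β, set 1 and set 2 libraries. In the window that starts at 88 Mb of chromosome 4, with the interferon genes, it was 3.61, 3.72, 3.02 and 2.55. In the window at 61 Mb of chromosome 15, near the A1bg cluster, it was 3.36, 2.98, 3.58 and 5.15, so the set 2 library stood above the other 3. The cause of these levels was not tested.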
